A study of Mus musculus with 5 samples.

Results

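The kallikrein (Klk), Prss and Tmprss genes encode serine proteases of the trypsin fold and some relatives that have lost activity. The genes described here are all those whose name in the expression table starts with Klk, Prss or Tmprss followed by a digit. There were 78 such genes among 22898 named genes, and 33 of the 78 reached a signal of 1 as the mean of both RNA libraries. By name they were 15 genes of the Klk1 family (Klk1 and the Klk1b genes, with the pseudogene Klk1b7-ps), 12 other kallikreins, 35 Prss and 16 Tmprss genes.

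The study used testes of mice 3 months old, and each of its 5 libraries is the only one of its group, so the differences below have no replicate check. RNA was sequenced from wild-type males and from males lacking Taf7l (Taf7l-/Y), an X-linked relative of the general transcription factor gene Taf7, and each RNA library pooled extracts of 6 animals. The other 3 libraries, labelled wild type, were ChIP libraries of TAF7L, RNA polymerase II (Pol II) and IgG, although the protocol they share names chromatin of both genotypes. The table of binding scores has columns for TAF7L and Pol II. Each RNA library held 100 to 200 M reads, per the labels. No source used here names the deleted part of Taf7l or the unit of the RNA signal. Taf7l itself (chromosome X, 130994654 to 131011029, mm9) had 13.2 (SD 1.56) in wild-type testis and 2.04 (SD 0.60) in knockout testis, a log2 change of -2.22.

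Serine proteases of this fold cut proteins through a histidine, an aspartate and a serine, and most are made as inactive precursors. In the testis, several Prss genes are read in spermatocytes or spermatids, and their products reach the acrosome or the sperm surface. Some of them are needed for the maturation of ADAM3, a sperm protein required for passage into the oviduct. The tissue kallikreins are secreted, and the mouse carries an expanded Klk1b family that is best known from the submandibular gland, with a few members made by Leydig cells. Tmprss genes encode membrane-anchored proteases, mostly of epithelia.

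Promoter sequences of 8 members are shown because the Klk1b genes went opposite ways with related promoters, and because Tmprss12 and Prss37 differ in TAF7L score. They are RefSeq windows of build GRCm38.p6, from 250 bases before to 10 bases after the annotated start. Capitals in the Klk1b promoters mark TTTAAA. The first 3 belong to genes that were higher in the knockout and the next 3 to genes with lower knockout signal.
Klk1b21: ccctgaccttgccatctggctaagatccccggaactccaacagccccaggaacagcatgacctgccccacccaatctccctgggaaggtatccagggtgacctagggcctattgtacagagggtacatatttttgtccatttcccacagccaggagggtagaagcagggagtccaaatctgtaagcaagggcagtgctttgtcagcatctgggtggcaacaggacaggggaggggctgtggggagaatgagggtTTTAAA
Klk1b24: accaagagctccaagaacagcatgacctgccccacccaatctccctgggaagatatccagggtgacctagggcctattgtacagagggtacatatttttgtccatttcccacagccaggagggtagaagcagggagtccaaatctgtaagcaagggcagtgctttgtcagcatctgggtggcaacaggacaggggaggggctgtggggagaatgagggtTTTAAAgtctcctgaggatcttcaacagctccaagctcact
Klk1b27: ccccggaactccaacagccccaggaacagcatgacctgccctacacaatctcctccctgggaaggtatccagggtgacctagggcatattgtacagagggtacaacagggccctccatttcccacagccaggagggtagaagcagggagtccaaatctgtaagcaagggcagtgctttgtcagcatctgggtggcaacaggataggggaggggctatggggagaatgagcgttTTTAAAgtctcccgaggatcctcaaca
Klk1b8: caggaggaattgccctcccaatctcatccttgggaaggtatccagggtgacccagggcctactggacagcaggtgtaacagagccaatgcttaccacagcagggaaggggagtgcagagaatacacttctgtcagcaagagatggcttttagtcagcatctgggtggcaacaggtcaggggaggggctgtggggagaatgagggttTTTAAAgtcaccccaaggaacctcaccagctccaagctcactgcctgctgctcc
Klk1b9: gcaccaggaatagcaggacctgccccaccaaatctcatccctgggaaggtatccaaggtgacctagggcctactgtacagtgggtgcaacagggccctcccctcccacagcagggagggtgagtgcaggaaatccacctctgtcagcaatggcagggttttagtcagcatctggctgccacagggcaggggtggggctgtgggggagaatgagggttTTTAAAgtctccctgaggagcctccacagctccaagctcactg
Klk1b26: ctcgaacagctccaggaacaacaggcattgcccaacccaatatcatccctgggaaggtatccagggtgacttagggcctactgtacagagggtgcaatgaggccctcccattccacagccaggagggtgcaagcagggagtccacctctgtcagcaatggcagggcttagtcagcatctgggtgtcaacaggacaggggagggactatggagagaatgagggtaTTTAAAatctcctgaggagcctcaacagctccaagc
In Prss37 and Tmprss12, capitals mark CG dinucleotides.
Prss37: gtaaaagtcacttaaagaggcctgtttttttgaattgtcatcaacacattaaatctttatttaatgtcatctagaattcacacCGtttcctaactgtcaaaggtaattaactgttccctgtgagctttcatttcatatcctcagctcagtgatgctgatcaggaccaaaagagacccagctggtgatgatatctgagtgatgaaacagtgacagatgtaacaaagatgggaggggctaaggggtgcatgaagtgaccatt
Tmprss12: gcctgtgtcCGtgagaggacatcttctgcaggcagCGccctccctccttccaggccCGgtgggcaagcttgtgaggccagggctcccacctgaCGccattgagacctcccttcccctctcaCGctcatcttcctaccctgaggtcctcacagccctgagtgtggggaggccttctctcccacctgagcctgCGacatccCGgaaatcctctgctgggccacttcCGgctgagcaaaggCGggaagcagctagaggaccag
The windows, in the order shown and with their GRCm38.p6 strand, are chr7:44102042-44102301 (plus), chr7:44187986-44188245 (plus), chr7:44052040-44052299 (plus), chr7:43950416-43950675 (plus), chr7:43975811-43976070 (plus), chr7:44012428-44012687 (plus), chr6:40519499-40519758 (minus) and chr15:100280587-100280846 (plus). Windows of 300 bases were given for 62 of the 78 members.

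Over the whole set, the 33 measured genes were spread to both sides of no change. Change is log2((knockout + 1)/(wild type + 1)) of the deposited signal, and a gene was called at 2-fold. Among the 33, 6 rose at least 2-fold in the knockout, against 7.15% of 13127 named genes with a mean of at least 1, and 6 were at least 2-fold lower, against 7.08%. With a pseudocount of 0.1 or 0.001 in place of 1, the same 6 members were higher while the share of all genes rose to 16.2% and 17.9%, so the members' count was then near the background. With a pseudocount of 1, the median change of the 33 was -0.11, and that of the 13127 genes 0.40. With the knockout multiplied by a constant so that the latter became 0, there were 5 higher and 12 lower members, against 1.01% higher and 12.4% lower among all genes. The summed signal of all 78 members was 1119 in wild-type and 822 in knockout testis. Both libraries were made from whole testis, where fewer cells of a type and less RNA per cell cannot be told apart.

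**Figure D1:**
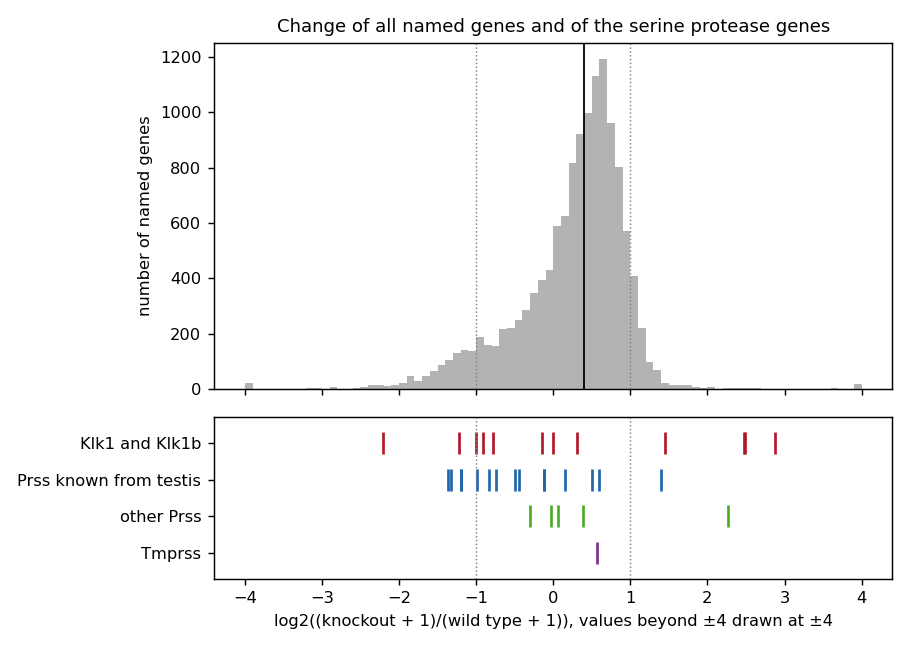
Histogram of the log2 change of the 13127 genes compared (top, y axis in genes) and the change of the 33 serine protease genes by group (bottom, 1 tick per gene). The solid line is the median of all genes, 0.40, the dotted lines mark 2-fold, and the Klk1 group spreads from -2.21 to 2.88.

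The deposited SD gives only a rough scale for these values. Taken in whichever library was higher, the SD of the 33 genes was between 0.0339 and 0.592 of the mean, with a median of 0.113. No source used here says what the SD was taken over, so SDs are printed as deposited and stand for no replicate spread.

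Among the 78 genes, the Klk1 family held the largest changes in both directions. Klk1b27 went from 3.68 (SD 1.33) in the wild type to 33.5 (SD 5.08) in the knockout, 9.11-fold higher. Klk1b21 had 6.54 (SD 1.65) and 41.0 (SD 4.32), 6.27-fold higher. Klk1b24 had 6.74 (SD 1.77) and 42.3 (SD 4.80), 6.28-fold higher. These 3 genes, which encode the kallikreins described in Leydig cells, ranked at positions 32, 45 and 44 among the increases of all 13127 genes. Klk1b22, which encodes a binding protein of epidermal growth factor, had 0.838 and 4.01, and reached the mean of 1 only through its knockout signal. It was also past 2-fold, with a log2 change of 1.45.

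Other family members were lower in the knockout. Klk1b8 was the most abundant of the family in the wild type, with 61.7 (SD 5.73), and had 12.6 (SD 2.64) in the knockout, a 4.91-fold decrease. Klk1b9, which encodes a further growth factor binding protein, fell from 14.6 (SD 2.70) to 5.71 (SD 1.56). The pseudogene Klk1b7-ps had 25.3 and 12.2, and Klk1b26, known for a prorenin-processing kallikrein, had 16.3 and 8.25. Their log2 changes of -0.996 and -0.91 were just inside 2-fold and past it after rescaling.

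Near Klk1 the differences were smaller. Klk1, the tissue kallikrein that releases kinins from kininogen, had 3.49 (SD 1.25) and 4.55 (SD 1.26). Klk1b5 had 3.12 in both libraries, and Klk1b4, known from the nerve growth factor complex, had 1.75 and 1.49. Klk1b3, of the same complex, had 3.90 and 1.86, a log2 change of -0.78 that was past 2-fold after rescaling and with smaller pseudocounts.

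Added over its 15 names, the family differed little between libraries. The sum was 149 in wild-type testis and 172 in the knockout, 1.16-fold. Its make-up differed. Klk1b21, Klk1b24 and Klk1b27 were 11.4% of the family's signal in wild-type testis and 67.7% in the knockout, while Klk1b7-ps, Klk1b8, Klk1b9 and Klk1b26 were 79.1% and 22.4%. Reads of these close paralogues can be shared between genes, and how such reads were counted is not stated. The values of single Klk1b genes, such as the nearly equal ones of Klk1b21 and Klk1b24, are therefore uncertain.

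Genes with large changes in either direction lay in the same cluster on chromosome 7. The 27 Klk genes lie between 50945788 and 51484987 (mm9), with no other named gene in the gaps between them. Klk1b8 is at 51206041 to 51210308, Klk1b27 at 51307659 to 51312081, Klk1b21 at 51357661 to 51361949 and Klk1b24 at 51443632 to 51447821. In this order the log2 changes of the 12 measured family members were -0.996 for Klk1b7-ps, -2.21 for Klk1b8, -1.22 for Klk1b9 and -0.91 for Klk1b26. They were then 2.88 for Klk1b27, 2.48 for Klk1b21, 1.45 for Klk1b22 and 2.48 for Klk1b24. At the far end they were -0.78 for Klk1b3, -0.15 for Klk1b4, -0.00 for Klk1b5 and 0.31 for Klk1. Klk1b1, Klk1b11 and Klk1b16, which lie among them, did not reach the mean of 1 and had 0.275 and 0.561, 0.149 and 0.743, and 0.691 and 0.647. With these low genes included the signs alternate along the first stretch, since Klk1b1 and Klk1b11 had positive changes of 0.29 and 0.60.

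**Figure D2:**
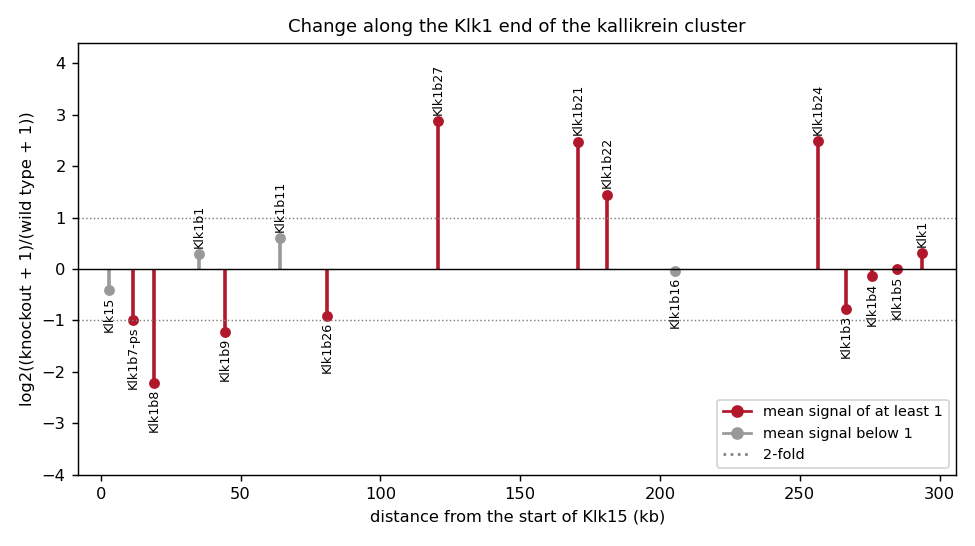
Log2 change (y axis) of Klk15, the Klk1b genes and Klk1 by distance from the start of Klk15 (x axis, kb). Each line is 1 gene, grey where the mean signal was below 1, and dotted lines mark 2-fold. Klk1b8 stands at -2.21 and Klk1b27 at 2.88, and the 4 genes past 2-fold higher are Klk1b27, Klk1b21, Klk1b22 and Klk1b24.

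The promoters of the family were alike. Over the aligned part of the RefSeq windows, Klk1b21 and Klk1b24 were identical at 97.7% of positions, Klk1b27 and Klk1b21 at 92.8%, and Klk1b27 and Klk1b24 at 89.7%. The first 2 values were the highest of all pairs, and 4 pairs of other genes lay above the third, among them Klk1b4 and Klk1b5 at 91.6% and Klk1b11 and Klk1b16 at 91.0%. Among Klk1b8, Klk1b9 and Klk1b26 identity was 80.8 to 85.8%, and between both sets it was 80.1 to 85.3%. Klk1b22, the other family gene past 2-fold higher, was in neither set. Its window was identical to those of Klk1b21, Klk1b24 and Klk1b27 at 79.2 to 80.7%. To those of Klk1b8, Klk1b9 and Klk1b26 it was identical at 82.8 to 88.4%. Over all 91 pairs of 14 family windows the median was 83.6%. TTTAAA occurred in 13 of the 14 windows, all but that of Klk1, and lay 13 to 48 bases before the annotated start in 12 of them. In Klk1b21 it lay 4 bases after the annotated start. Of the 48 other members with windows, 5 had it in any of their windows, and it was in 13.2% of all 32851 promoter windows. This motif reads the same on both strands and was chosen after the sequences were seen. TATAAA, searched on both strands, was in none of the 14 windows and in 13.6% of all windows. AAGGTCA, searched on both strands, was in the windows of Klk1b21 and Klk1 within the family and in 4.72% of all windows. In Klk1b21 it lay at position -247 from the annotated start, at the edge of the window. The windows of Klk1b24 and Klk1b27 begin past the matching stretch, which was therefore not searched in them.

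Markers of other cells moved in the same libraries. Among the 13127 genes 7.15% were at least 2-fold higher and 7.08% lower, or 1.01% and 12.4% after rescaling. Of 8 Leydig cell markers, all measured, 3 rose past 2-fold and none fell past it (2 and 2 after rescaling, with Insl3 and Star then lower), and their summed signal was 1938 and 1588. Cyp11a1, of the first step of steroid synthesis, had 40.0 and 151, while Insl3, the most abundant marker, had 1686 and 1052 and Star 23.5 and 11.7. Of 10 epididymal markers 6 reached the mean of 1, and 4 of these were higher and 1 lower, with sums of 225 and 219. The 4 higher ones, Adam7, Crisp1, Defb2 and Spink8, reached the mean of 1 only through their knockout signal, so their count depends on that filter. Crisp1 had 0.042 and 75.9, and Lcn2, which made up most of the wild-type sum but not of the knockout sum, 223 and 77.4. Lcn5, Lcn8 and Lcn9 stayed at or under 0.058 in both libraries. The part of either cell type in the kallikrein values was not tested.

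Most of the abundant ones among 15 Prss genes known from testis had lower signal in the knockout. Prss39, which encodes the acrosomal protease TESP1, was the most abundant of all 78 genes, with 278 (SD 9.41) in wild-type testis and 166 (SD 11.0) in the knockout. Prss55, a membrane-anchored protease needed for ADAM3 maturation, fell from 144 (SD 8.38) to 55.5 (SD 5.76). Prss37, a relative without the full set of catalytic residues that is needed for the same process, fell from 138 (SD 6.63) to 59.3 (SD 5.52). Prss52 fell from 90.8 (SD 6.88) to 39.2 (SD 4.28), and Prss54, known from the acrosome, from 29.9 (SD 2.33) to 11.4 (SD 1.38). Prss39 had a log2 change of -0.74, within 2-fold, and was past it after rescaling. Altogether 4 of these 15 genes were lower and 1 was higher, against 7.08% and 7.15% of the 13127 genes. Their median change was -0.49, against 0.40 for all genes. After rescaling 7 were lower and none higher, against 12.4% and 1.01%. The summed signal of the 15 genes was 933 and 584.

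Prss21 differed from these. It encodes testisin, a protease anchored to the sperm surface, and had 73.8 (SD 5.91) in wild-type testis and 68.1 (SD 9.64) in the knockout. Its log2 change was -0.11. The acrosomal gene Prss40, which encodes TESP2, had 29.9 and 21.8, and Prss41 had 2.63 and 1.58. Prss39 and Prss40 lie 49269 bp apart on chromosome 1, with 1 other named gene between them.

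**Figure D3:**
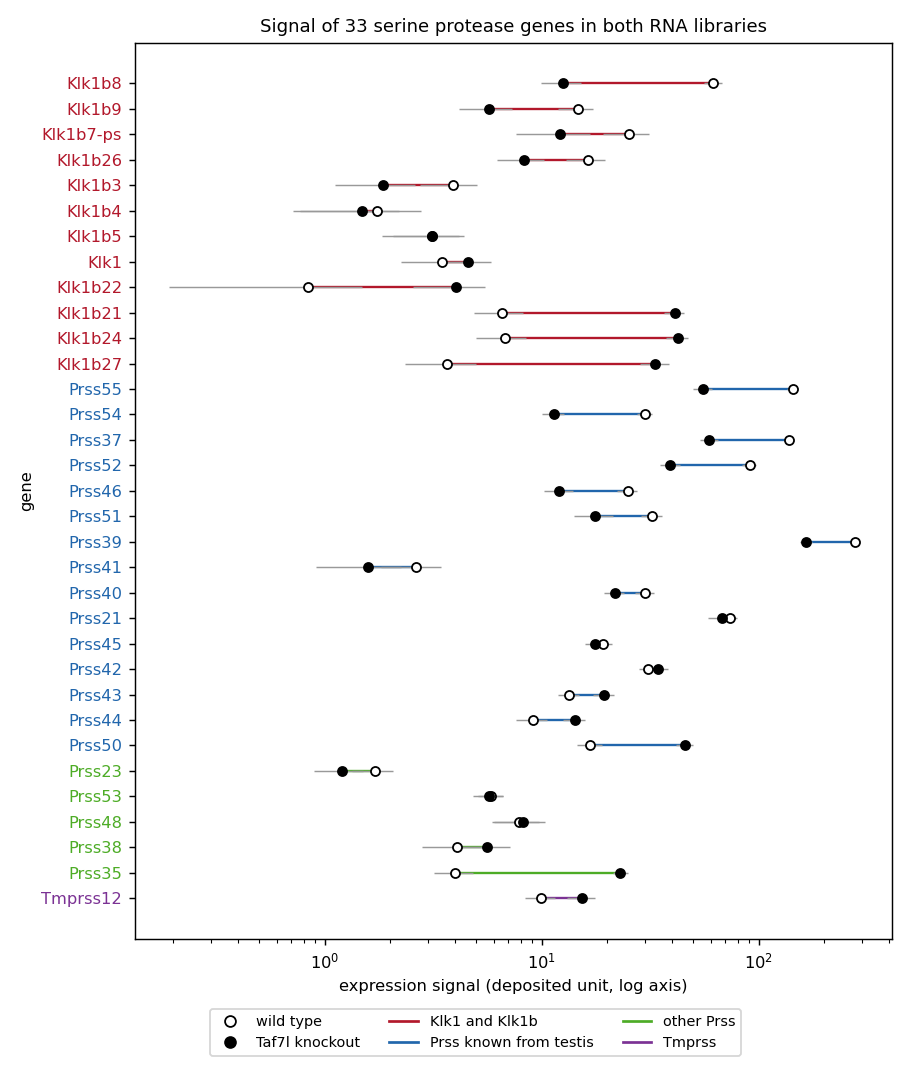
Signal (x axis, log scale, deposited unit) of the 33 genes with a mean of at least 1, in the wild-type library (open circles) and the knockout library (filled circles). Grey bars are the deposited SDs, and line colours give the gene group. Prss39 is highest with 278 and 166, and Klk1b27 shows the widest step upward, from 3.68 to 33.5.

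Prss51, Prss52 and Prss55 are neighbours on chromosome 14 (64694279 to 64732588, mm9). All 3 had lower knockout signal, with log2 changes of -0.83 for Prss51, -1.19 for Prss52 and -1.36 for Prss55. Prss51 had 32.2 (SD 3.51) and 17.7 (SD 3.54). Their summed signal was 267 in wild-type testis and 112 in the knockout.

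A second cluster, on chromosome 9 (110700688 to 110767132, mm9), was mixed. It holds Prss42, Prss44, Prss43, Prss45, Prss46 and Prss50 in this order, with no other named gene in the gaps. Prss42 and Prss43, known for roles in meiosis, had 30.9 and 34.5, and 13.4 and 19.3. Prss44 had 9.13 (SD 1.48) and 14.2 (SD 1.65), and Prss45 19.1 (SD 2.01) and 17.6 (SD 1.79). Prss46 had 24.9 (SD 2.64) and 12.1 (SD 1.81), just inside 2-fold, and was past it with smaller pseudocounts, with summed transcripts and after rescaling. Prss50, which encodes a testis protein of this fold, rose from 16.7 (SD 2.25) to 45.6 (SD 4.16). After rescaling its log2 change of 1.39 became 0.91, which is within 2-fold. Prss46 and Prss50, 1444 bp apart, had changes of opposite sign.

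Germ cell markers in the same libraries differed by stage. Their counts stand against 7.15% higher and 7.08% lower among the 13127 genes, or 1.01% and 12.4% after rescaling. All 8 markers of elongating spermatids were at least 2-fold lower, with sums of 67071 and 12013. Of the 7 round spermatid markers found, 6 were lower, with sums of 1130 and 491. Of 8 spermatocyte markers 2 were higher and none lower, with sums of 293 and 347, and after rescaling none was past 2-fold. The part of these stages in the Prss values was not tested.

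Of the other Prss genes, Prss35 stood out. It encodes a secreted relative that lacks the usual catalytic serine and is known from the ovary. Its signal (chromosome 9, 86636433 to 86650678, mm9) was 4.01 (SD 0.813) in wild-type testis and 23.1 (SD 1.86) in the knockout, 5.76-fold higher. It ranked at position 51 among the increases of all genes. Of 8 Sertoli cell markers found 3 were at least 2-fold higher, with sums of 713 and 1376, and of 6 measured macrophage markers 2 were, with sums over all 7 markers of 38.9 and 88.7. After rescaling 2 Sertoli cell markers and no macrophage marker remained past 2-fold. Of the 13127 genes 7.15% were at least 2-fold higher, and 1.01% after rescaling. The part of these cells in the value of Prss35 was not tested.

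The remaining measured Prss genes of this group were within 2-fold. Prss48 had 7.82 and 8.21, Prss53, a protease with repeated catalytic domains, 5.85 and 5.71, and Prss38 4.06 and 5.59. Prss23, a widely made secreted protease, had 1.71 and 1.20.

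Among the Tmprss genes 1 of 16 was measured. Tmprss12, a membrane-anchored protease required for male fertility in mice, had 9.98 (SD 1.60) in wild-type testis and 15.3 (SD 2.30) in the knockout. Its log2 change of 0.57 lay near the median of all genes, and was 0.12 after rescaling.

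The other 45 members were below a mean of 1. Among them were the 12 kallikreins from Klk4 to Klk15, the pancreatic trypsinogen genes Prss1, Prss2 and Prss3, and 15 Tmprss genes. For 36 of the 45 the higher signal was at most 0.475, and Klk5, Prss28, Prss29 and Tmprss11c were listed at 0 in both libraries. For 29 of the 45 the SD was at least as large as the signal in whichever library was higher. Members that reached 0.5 in 1 library were Klk15 with 0.563 and 0.176, Prss12, which encodes neurotrypsin, with 0.328 and 0.624, and Prss36 with 0.582 and 1.25. Tmprss2 had 0.129 and 0.577, Tmprss9 0.509 and 0.381, and Tmprss13 0.37 and 1.03. Klk1b1, Klk1b11 and Klk1b16 complete these 9. Exocrine pancreas markers were also low, with 1 of 7 at a mean of at least 1, Cela2a with 1.09 and 1.68. Of 6 mast cell markers 1 was measured, Hdc with 9.25 and 13.0, and Ms4a2 was at 0 in both libraries.

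Few of the proteases had TAF7L at the promoter in wild-type testis. The scores are the authors' own, no source used here defines them or the distances of their classes, and a 0 was taken as no score. Of the 78 genes 7 had a TAF7L promoter score, 8.97% (95% Wilson interval 4.42 to 17.4), against 28.6% of all named genes. Among the 33 measured members it was 6, 18.2% (8.61 to 34.4), against 47.2% of the 13127 genes. A Pol II promoter score was given for 20 of the 78, 25.6% (17.3 to 36.3), against 50.1% of all named genes, and for 19 of the 33, 57.6% (40.8 to 72.8), against 75.7%. Outside the promoter class, TAF7L had a proximal score at 3 of 78 (background 18.7%) and 2 of 33 (28%), and a distal score at 27 of 78 (39.6%) and 17 of 33 (51.5% of the 33, background 49.8%). Pol II had a proximal score at 17 of 78 (39.6%) and 12 of 33 (55.8%), and a distal score at 52 of 78 (61.5%) and 27 of 33 (73.4%).

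The TAF7L scores that were present were mostly low. Tmprss12 had the highest, 154, with a Pol II score of 564, the highest of the set as well. Prss38 followed with 67.9 and a Pol II score of 119. Prss21 had 39.9 and 136, Prss42 38.9 and 178, Prss44 37.1 and 212, and Prss45 34.7 and 212. Prss36, below a mean of 1, had 33.7 and 155. Over all named genes with a TAF7L promoter score the median was 70.9, so that of the 7 only Tmprss12 lay above it.

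The 6 measured members with TAF7L at the promoter had changes from -0.11 to 0.59. None was past 2-fold, and of all genes of this class only 5.16% were higher and 2.89% lower, so a count of 0 in 6 is near the background. The 13 members with a Pol II and no TAF7L promoter score ran from -1.36 to 2.27, and their median was -0.74. Of these 13, 2 were higher and 3 lower, against 9.97% and 11.8% of all genes of the class. Prss55, Prss37 and Prss52, which fell, were among them, with Pol II promoter scores of 164, 148 and 226, as was Prss39 with 76.3. Prss50 with 91.7 and Prss35 with 61.9 were the 2 past 2-fold higher, and after rescaling Prss50 was within 2-fold. The same classes over all 13127 genes had medians of 0.43 with TAF7L and 0.45 with Pol II alone. Whether the members differ from all genes in this was not tested.

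**Figure D4:**
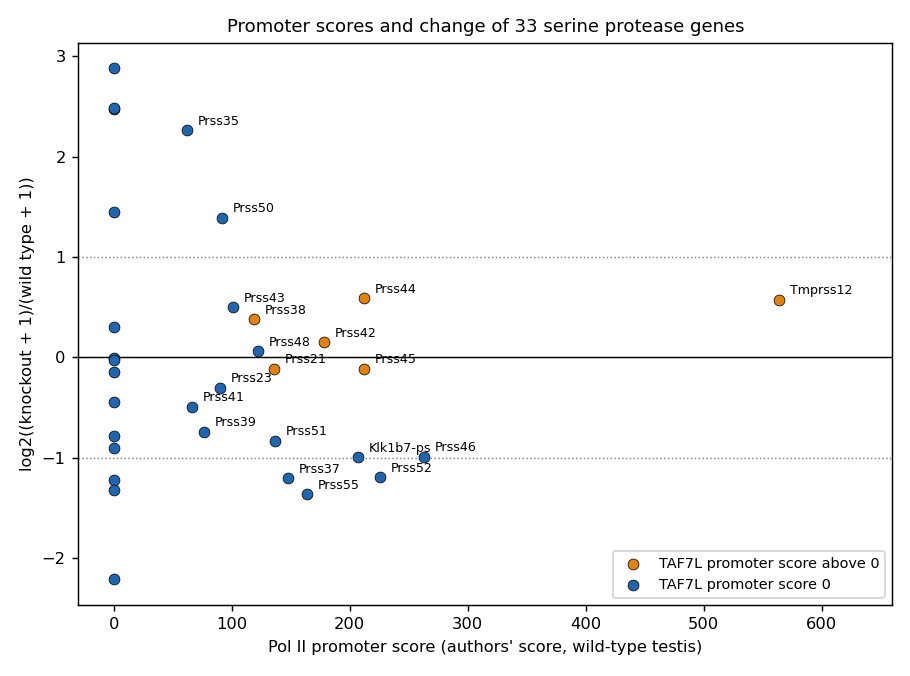
Log2 change (y axis) of the 33 measured genes against the authors' Pol II promoter score (x axis), with genes that had a TAF7L promoter score in orange. The 6 orange points lie between -0.11 and 0.59, and genes past 2-fold (dotted lines) are blue.

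The Klk1 family had almost no promoter scores in wild-type testis. How ChIP reads matching several of these close paralogues were handled is not stated. A score of 0 here therefore does not show that a factor was absent. TAF7L was 0 at the promoter of all 15, and Klk1b7-ps had the only Pol II promoter score, 207. The same value stood in the proximal class of Klk1b8 and in the distal class of Klk1b1 and Klk1b9. The proximal Pol II score was 113 for Klk1b7-ps and 40.5 for Klk1b26. In the distal class, Klk1b3, Klk1b4, Klk1b5 and Klk1 each had 863 for Pol II, and these 4 and Klk1b24 each had 68.3 for TAF7L. Equal scores at neighbours are not independent measurements. Klk1b24 had a distal Pol II score of 432 and Klk1b27 one of 40.5, while Klk1b21, Klk1b22 and Klk1b16 had 0 in all 6 columns.

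Shared scores also stood in the Prss clusters. Prss44 and Prss45 both had 212 for Pol II at the promoter, a value that returned as the proximal score of Prss43 and Prss46. On chromosome 14 the promoter score of Prss51, 137, was the proximal score of Prss55, whose promoter score of 164 was the proximal score of Prss51. These neighbours share scores as the Klk1b genes do.

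The median count of CG dinucleotides was higher in promoters with a TAF7L score than in those with neither score, and the ranges overlapped. The printed stretch of Tmprss12 has 9 and that of Prss37 has 1. In the 300-base windows the median was 11.5 for 6 members with a TAF7L promoter score (5 to 12), 10 for 7 with Pol II alone (1 to 21) and 3 for 49 with neither (0 to 23). Over named genes with a mean of at least 1 and a window, the medians were 24, 17 and 13, in the same order of classes. The members were counted at any mean, so the member and all-gene medians are of unlike sets. TGACGTCA, the cAMP response element, was in none of the member windows on either strand, and in 1.79% of all windows. Its shorter form TGACGT, which it contains, was in 6 of 73 member windows and in 7.51% of all windows.

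Other genes of the protease network were taken from lists outside the family. Of 37 other serine protease genes 15 were measured, with 4 at least 2-fold higher and 1 lower. Of the 13127 genes 7.15% were higher and 7.08% lower. Acr, which encodes the acrosomal protease acrosin, was the most abundant with 70.5 and 55.7. Htra1 had the largest increase, from 3.53 to 14.8, and Gzmn, a granzyme gene, the largest decrease, from 14.3 to 4.12. Pcsk4, the proprotein convertase of sperm, had 43.9 and 25.3. After rescaling the counts were 1 and 2, against 1.01% and 12.4% of all genes.

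Inhibitors and partners were counted in the same way, and the same shares of all genes apply. Of 27 listed inhibitors 25 were found and 15 measured, with 4 higher and none lower, or 1 and 1 after rescaling. Pebp1 was the most abundant with 1747 and 1403, and Spint3, a Kunitz-type inhibitor gene, rose from 0.611 to 7.04. Serpina3g had the largest negative change, with 4.80 and 2.49, within 2-fold but lower after rescaling. Of 22 substrates and partners 11 were measured, with 2 lower and none higher, or 4 lower after rescaling. These 2 were Calr3, which fell from 65.2 to 23.7, and Pdilt, which fell from 71.1 to 29.5, both chaperone genes of the testis that act in ADAM3 folding. Adam3 had 161 and 118, and Ly6k, a further gene of this pathway and the highest of the list by the mean of both libraries, 147 and 197. The receptors F2r and F2rl1, which proteases activate by cleavage, were below a mean of 1.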

How the data were processed

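The members and gene lists were chosen with earlier results of these data known, and the TTTAAA motif after the promoter sequences were seen. The authors used Bowtie for ChIP reads and Bowtie, TopHat and Cufflinks for RNA reads, on build mm9, per the submitters' processing notes. No source used here gives versions, strand, how reads matching several paralogues were handled, how peaks were called or what IgG was used for. The deposited expression table holds a mean signal and its standard deviation (SD) for each genotype and 55350 transcripts, per the file headers. The header names neither the unit of the signal nor what the SD was taken over, so the SD is no replicate spread. The authors' log2 ratio and their ratio of SD to mean, also deposited, were not used. The deposited binding table holds per the file headers, 1 score for each factor, transcript and class (promoter, proximal or distal), and defines neither score nor distance. Every transcript of the expression table was found in it.

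Of the transcripts, 7541 named only by a sequence accession were left out, and the transcript with the highest mean of both libraries stood for each of 22898 gene names. The binding scores are those of the same transcript. Change is log2((knockout + 1)/(wild type + 1)), a scale on which low genes change less than their ratio says. Genes whose mean reached 1 were compared and called at 2-fold. With 1 library per genotype there is no test and no p-value. Rescaling multiplied the knockout signal by 0.71 to give a median change of 0 over all genes. Intervals of shares are 95% Wilson intervals and describe counting of genes alone. The 33 members named with values are those with a mean of at least 1. Below that mean, the members named have a promoter score or a signal of at least 0.5 in 1 library. Each pathway list is given by its most abundant member and its largest positive and negative changes. Pdilt, Adam3, Pcsk4 and some marker genes were named after their values were seen. The rescaling and the 2-fold call were tested on simulated data, and the other steps were not. Python 3.11.15, pandas 2.3.3, SciPy 1.17.1 and Biopython 1.88 were used. Promoter windows are from RefSeq, build GRCm38.p6. Those of the Klk1 family were aligned globally with free end gaps, a match of 1, a mismatch of -1, a gap opening of -2 and a gap extension of -0.5.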

Additional observations from a re-analysis of the deposited data

How the results depend on the processing

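Each group has 1 library, so no replicate could be left out and no paired analysis was possible because the labels give no replicates. Of the 33 measured members, none that was past 2-fold changed sign with a pseudocount of 0.1 or 0.001, with transcripts summed, with the longest transcript, or after rescaling. The count of higher members was 5 or 6 in these settings, with a mean of at least 5 and with no filter. Without the Klk1 family, an alternative added after the data were seen because its paralogues can share reads, it was 2 of 21, near the 7.15% of all genes, and the count of lower members was 4 of 21, against 7.08%. Rescaling the knockout library gave 12 lower members, beside 12.4% of all genes, and a median of -0.55. Klk1b26, Klk1b3, Klk1b7-ps, Prss39, Prss46 and Prss51 were then past 2-fold. The cause of that shift in scale was not tested. Pseudocounts of 0.1 and 0.001 gave 9 lower members, beside 8.90% and 9.23% of all genes, and left 6 higher, beside 16.2% and 17.9%. Shares of members with a promoter score depend on what is counted. A score of at least the median of all genes left 1.28% for TAF7L and for Pol II alike. Any of the 3 classes gave 38.5% for TAF7L, beside 12843 of all 22898 named genes, and 73.1% for Pol II. Counting within the 33 measured members gave 18.2% and 57.6%, beside 47.2% and 75.7% of all genes at that mean. For the median score, and for Pol II in any class, the share of all genes was not computed. No source used here gives the depth of the ChIP libraries, so a score of 0 does not show that a factor was absent.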
